A study of Mus musculus with 8 samples.

Results

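Splicing factor genes were examined in whole prostate of NOD mice, an inbred strain that develops autoimmune disease. The members were the protein-coding genes of the table with symbols beginning with Snrp, with Sf3a, Sf3b, Srsf, Prpf or Lsm followed by a digit, or with U2af or Hnrnp, and Acin1. They were 82 of 54532 genes in all: 12 snRNP, 9 SF3A and SF3B, 11 SR, 13 PRPF, 3 U2AF, 13 LSm and 20 hnRNP genes, and Acin1. The study asked how the TNF-antagonist etanercept changes gene expression in the prostate. Control mice received PBS and etanercept-treated mice received etanercept at 4 mg/kg, each by 2 injections per week for 5 weeks. All prostates were harvested at 30 weeks of age, and poly(A) RNA was sequenced from 4 mice per group. Mice are named by their group and animal number, and values of single mice are given in the order control 1, 3, 65 and 69, then etanercept 17, 19, 50 and 52. Total counts ran from 13760669 in control mouse 65 to 25178942 in control mouse 1.

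Pre-mRNA splicing removes introns in the spliceosome, which is built on each intron from small nuclear ribonucleoprotein particles (snRNPs). The U1 snRNP and U2AF mark the ends of the intron, the U2 snRNP with SF3A and SF3B holds the branch point, and the U4/U6.U5 tri-snRNP with its PRPF proteins completes the machine. SR proteins mostly bind exons and promote use of nearby splice sites, while hnRNP proteins coat nascent RNA and often act against them. These genes are broadly expressed, in the secretory epithelium of the prostate as in its stroma and immune cells.

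The tissue label was checked against marker genes, in CPM, counts scaled to a common library total. All 12 prostate luminal genes had counts in every mouse. Their summed level was 14064, 14217, 17498 and 23899 CPM in the control mice and 15851, 22682, 22495 and 26828 CPM in the etanercept-treated mice. Spink1 had 197.6, 5695, 724.5 and 18139.6 CPM in the control mice and 137.04, 12699, 16309.8 and 6451 CPM in the etanercept-treated mice, and Pbsn had 9172, 3183, 8677 and 1094 CPM in the control mice and 7219, 3547, 1743 and 8023 CPM in the etanercept-treated mice. Pbsn exceeded Spink1 in control mice 1 and 65 and etanercept mice 17 and 52, so the make-up of luminal RNA differed between mice within both groups. Seminal vesicle genes summed to 0.542, 0, 26.98 and 4001 CPM in the control mice and 97204, 4.39, 667.9 and 26.96 CPM in the etanercept-treated mice. Etanercept mouse 17 and, at lower levels, control mouse 69 and etanercept mouse 50 therefore held seminal vesicle RNA, most of it from Svs2, and no seminal vesicle gene had counts in every mouse. Skeletal muscle genes summed to 70.8, 1799, 200.8 and 520.4 CPM in the control mice and 694.3, 725.8, 1039.8 and 1313 CPM in the etanercept-treated mice, with Acta1 the highest on average and Tnnc2 at 0 in every mouse. Control mouse 3 had the highest sum, and Myh4 stood at 352.5 CPM there. By edgeR at an unadjusted p of at most 0.05, 2 of 6 tested skeletal muscle genes were lower with etanercept (background 3.63% of all tested genes) and 0 higher (background 2.99%), and 0 of 12 luminal genes were lower or higher.

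Other cell types also differed between mice. Smooth muscle genes summed to 3438, 7161, 7140.1 and 6265 CPM in the control mice and 11622, 6549, 11673 and 13982 CPM in the etanercept-treated mice, and 4 of 7 were higher with etanercept at the same threshold (background 2.99%). T cell genes summed to 169.7, 225.2, 133.9 and 85.6 CPM in the control mice and 83.6, 62.03, 108.9 and 69.99 CPM in the etanercept-treated mice, and 4 of 11 were lower (background 3.63%, as for the lists below). Macrophage genes summed to 384.7, 993.1, 520.5 and 330.4 CPM in the control mice and 262.1, 363.4, 272.8 and 332.4 CPM in the etanercept-treated mice, and 3 of 8 were lower. Each of these sums overlapped between the groups, with etanercept mouse 19 beside the controls for smooth muscle. Adipocyte genes summed to 198.2, 356.3, 43.2 and 117.7 CPM in the control mice and 38.5, 50.96, 51.9 and 56.9 CPM in the etanercept-treated mice, with 4 of 7 lower. Basal epithelial genes summed to 376.96, 306.2, 269.1 and 166.1 CPM in the control mice and 205.9, 156.9, 126.7 and 226.9 CPM in the etanercept-treated mice, with 2 of 5 lower. Control mouse 3 was highest of all mice for T cell, macrophage and adipocyte genes. B cell genes summed to 109.995, 404.1, 127.99 and 100.996 CPM in the control mice and 193.9, 63.9, 141.8 and 44.5 CPM in the etanercept-treated mice, with 0 of 8 lower. Proliferation genes summed to 85.5, 228.8, 105.3 and 101.9 CPM in the control mice and 95.6, 70.003, 117.7 and 101.7 CPM in the etanercept-treated mice, with 1 of 8 lower. The part of these marker levels in the splicing factor values was not tested. In whole tissue, fewer cells of a type and less RNA per cell cannot be told apart.

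Most splicing factor families had lower median values in etanercept-treated versus control mice, with the snRNP median the lowest among families of several genes. SR and PRPF genes were centred near 0, and the sign of their medians changed between settings. Of the 81 members tested, 54 had a negative and 27 a positive log2 fold change, and 50.96% of all tested genes were negative. Their median was −0.21, against −0.0099 over all 15472 tested genes. In the quasi-likelihood test of edgeR, with p-values adjusted over all tested genes by the Benjamini-Hochberg method, 0 members and 0 genes (0%) passed an adjusted p of 0.05, the smallest adjusted p being 0.739. DESeq2 called 0 members and 21 genes (0.115%). No single splicing factor gene was therefore called, and the differences below are described at unadjusted p. By edgeR at an unadjusted p of at most 0.05, 14 members were lower with etanercept (background 3.63% of all tested genes) and 2 were higher (background 2.99%). DESeq2 at the same threshold gave 18 lower (background 3.6%) and 2 higher (background 2.24%). The groups did not overlap, with the treated mice lower, for 17 members (background 2.53%) and, with the treated mice higher, for 3 (background 2.41%).

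Without control mouse 65 the number lower was 9, and without control mouse 69 it was 19. Without etanercept mouse 17, the mouse with most seminal vesicle RNA, it was 11, and the median over members was −0.16. The number higher ran from 1 to 4 over the fits that leave out a mouse, and was 0 with the GC trend removed. Shares of all tested genes lower or higher are not given for these fits, so their counts have no background of their own.

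**Figure D1:**
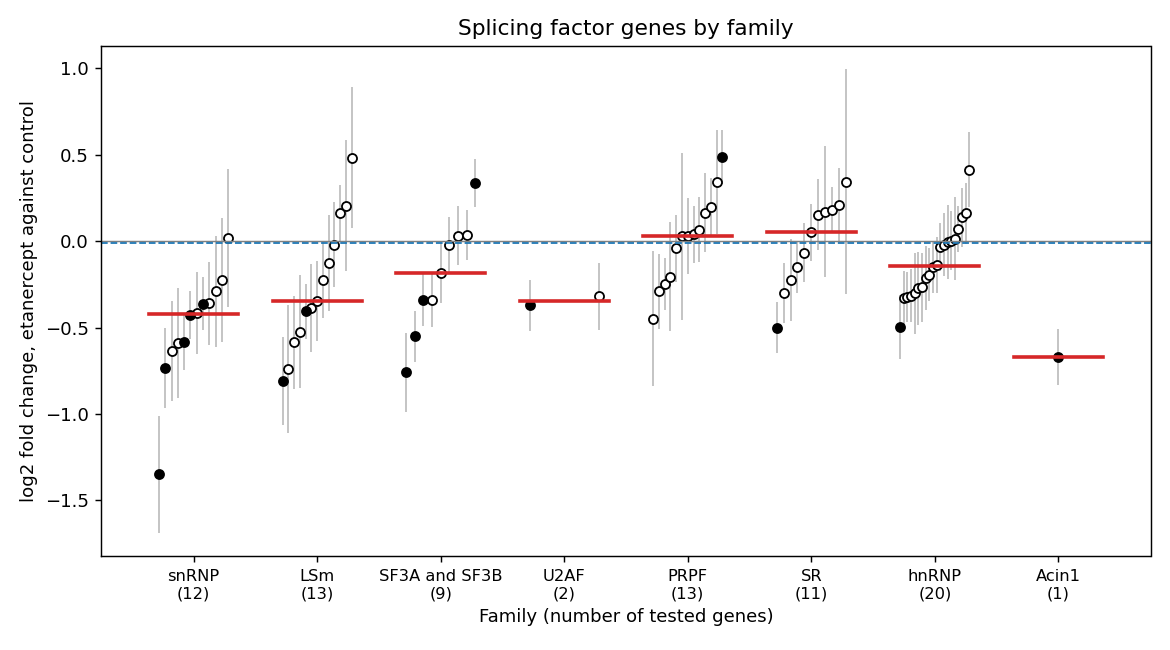
Log2 fold change of each tested splicing factor gene, etanercept against control, by family, with its standard error; filled points had an unadjusted edgeR p of at most 0.05, red lines are family medians and the dashed line is the median of all tested genes. The snRNP median lies at −0.42, the hnRNP median at −0.14 and the SR median at 0.051, the last of which changes sign in 4 of 18 alternative settings. These include library size alone, where the SR median is −0.032 and that of all tested genes −0.094.

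The snRNP, SR and hnRNP families were compared within each mouse as the mean log2(CPM + 1) of their tested genes. The snRNP level was 5.97, 5.50, 5.59 and 5.01 in the control mice and 5.06, 5.02, 5.14 and 5.17 in the etanercept-treated mice. Control mouse 69 was the lowest of all mice, close to the treated mice, and the other controls lay above all of them. The share of all counts in the 10 most abundant genes was also higher in control mouse 69 and the treated mice, at 15.6, 17.7, 17.5 and 31.1% in the control mice and 23.2, 27.7, 27.3 and 21.6% in the etanercept-treated mice, and its part in the snRNP level was not tested. The SR level was 5.66, 5.66, 5.68 and 5.74 in the control mice and 5.56, 5.70, 5.77 and 5.68 in the etanercept-treated mice, with the groups overlapping throughout. The hnRNP level was 6.97, 7.07, 7.08 and 7.07 in the control mice and 6.84, 7.03, 6.98 and 6.90 in the etanercept-treated mice. Control mouse 1 lay below etanercept mice 19 and 50, the other controls lay above all treated mice, and etanercept mouse 17 was lowest. The difference of snRNP minus SR level was 0.32, −0.16, −0.089 and −0.72 in the control mice and −0.50, −0.68, −0.63 and −0.51 in the etanercept-treated mice. It was most negative in control mouse 69, and the controls ranged more widely (SD 0.43) than the etanercept-treated mice (SD 0.087). The difference of hnRNP minus SR level averaged 1.37 ± 0.046 (SD, n = 4) for controls and 1.26 ± 0.058 (SD, n = 4) after etanercept, again with overlap.

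**Figure D2:**
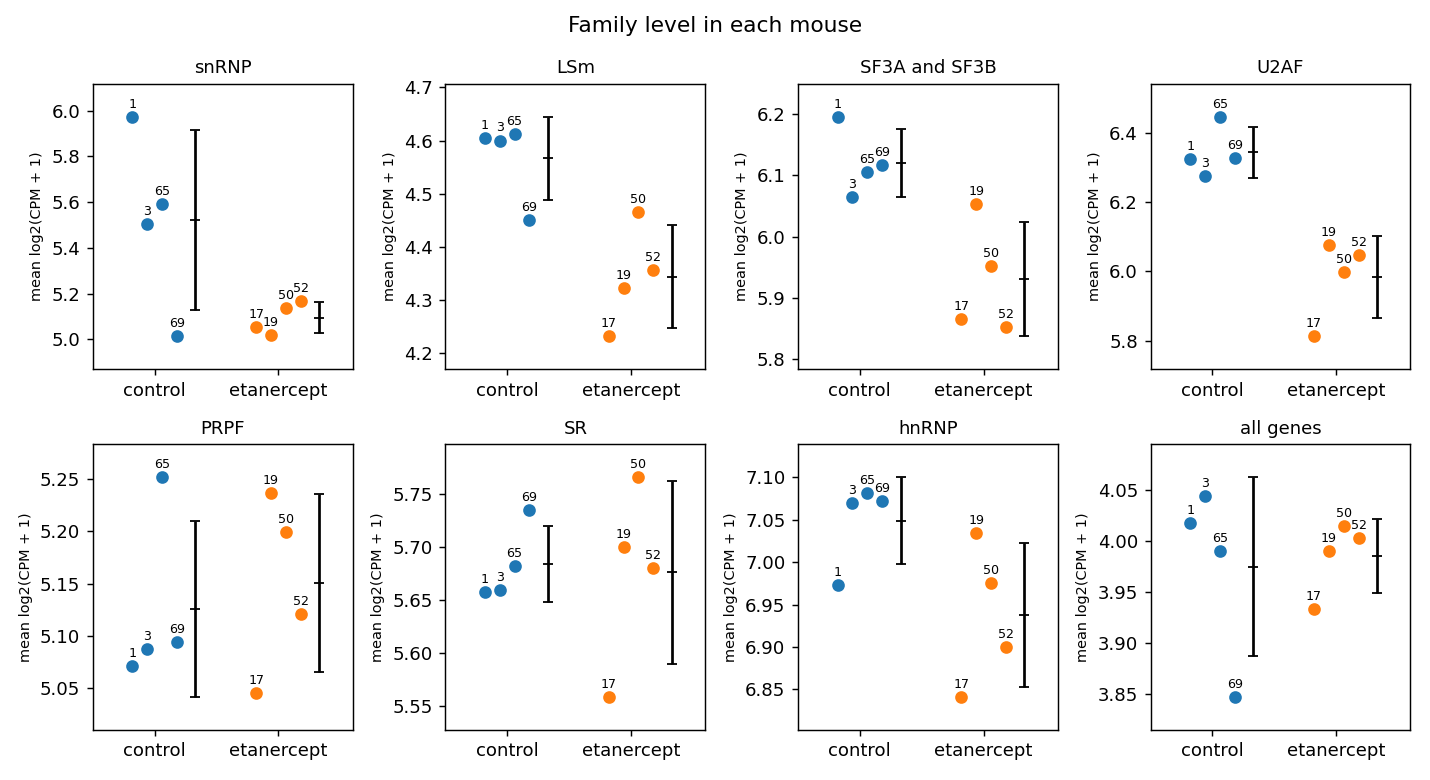
Mean log2(CPM + 1) of the tested genes of each family, and of all tested genes, in each mouse, with the mean and SD of each group (n = 4) in black, animal numbers beside the points and a separate vertical scale in each panel. For snRNP genes, control mouse 69 at 5.01 falls just below the treated mice, while U2AF and SF3 levels do not overlap between groups.

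The median log2 fold change was −0.42 over 12 snRNP genes, −0.14 over 20 hnRNP genes and 0.051 over 11 SR genes. Across 18 alternative settings the snRNP median ran from −0.56 to −0.37 and the hnRNP median from −0.24, with the GC trend removed, to −0.11. The SR median ran from −0.13 to 0.084 and was negative in 4 settings, among them the fit without control mouse 65 (−0.038), so it had no fixed direction. Another was library size alone, a scaling that shifts all genes, where it was −0.032 against −0.094 for all tested genes. Gene length also differed between the families, with a median exon length of 2388 bases for snRNP, 3988 for SR, 5898 for hnRNP and 4180.5 for all tested genes. Within each mouse, how far each gene lay from its average over the 8 mice was compared across genes with exon length, which gave a Spearman's rho of −0.12, −0.088, −0.16 and −0.011 in the control mice and 0.064, 0.15, 0.065 and 0.15 in the etanercept-treated mice. The values were negative in the control libraries, though close to 0 in control mouse 69, and positive in the etanercept libraries. For GC content in place of length, rho was 0.16, 0.036, 0.24 and 0.0006 in the control mice and −0.072, −0.14, −0.14 and −0.098 in the etanercept-treated mice. With the length trend removed, the medians were −0.44 for snRNP, −0.17 for hnRNP and −0.054 for SR genes. With the GC trend removed, they were −0.55, −0.24 and −0.13.

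Among snRNP genes, 5 of 12 were lower and 0 higher at unadjusted p (background 3.63% lower and 2.99% higher). Their levels moved together across the mice, with a median pairwise correlation of 0.58 and 59 of 66 pairs positive. The median correlation was 0.10 over all tested members, −0.026 for SR and 0.11 for hnRNP genes. Counts among snRNP genes, here and below, are therefore not counts of separate observations. Per length, Snrpb was the most abundant, with a mean of 47.4 CPM per kilobase of exon (FPKM), and Snrpc the least, with 5.98 FPKM. The Sm ring, a ring of small proteins around the uridine-rich site of each spliceosomal snRNA except U6, is the core of the snRNP. Snrpf (chromosome 10, 93583029 to 93589706), a ring subunit, had 45.1, 25.3, 34.9 and 15.2 CPM in the control mice and 13.5, 8.02, 12.2 and 13.7 CPM in the etanercept-treated mice. Control mouse 69 lay just above the treated mice and the other controls well above them, without overlap (log2 fold change −1.35 ± 0.34 (SE), unadjusted p = 0.00280). Of its 861 exon bases, 735 overlapped genes on the opposite strand, Ccdc38 and 4933408J17Rik, and the strand setting of the counting was not stated, so its level is uncertain. Snrpd3 (chromosome 10, 75517551 to 75537381), also a ring subunit, had 77.9, 56.1, 57.97 and 60.4 CPM in the control mice and 23.8, 47.6, 35.9 and 44.4 CPM in the etanercept-treated mice. Its groups did not overlap, with etanercept mouse 17 lowest (log2 fold change −0.73 ± 0.23 (SE), unadjusted p = 0.0101). Snrpb (chromosome 2, 130171414 to 130179403), the ring's SmB subunit, had 81.9, 109.8, 120.8 and 108.6 CPM in the control mice and 79.97, 77.01, 87.6 and 83.1 CPM in the etanercept-treated mice. Control mouse 1 lay within the treated range and the other controls above it (log2 fold change −0.36 ± 0.15 (SE), unadjusted p = 0.0423).

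Other Sm genes separated control mouse 69 from the other controls. Snrpd2 had 131.4, 78.4, 96.9 and 46.6 CPM in the control mice and 45.8, 52.8, 57.5 and 71.4 CPM in the etanercept-treated mice. Snrpe had 67.1, 53.2, 46.3 and 23.7 CPM in the control mice and 57.95, 33.4, 32.8 and 31.5 CPM in the etanercept-treated mice. Snrpg had 47.98, 35.8, 37.6 and 12.6 CPM in the control mice and 36.8, 22.1, 28.4 and 27.4 CPM in the etanercept-treated mice. Control mouse 69 was the lowest mouse for Snrpe and Snrpg and lay beside the lowest treated mouse for Snrpd2, so that the groups overlapped. These genes were singled out after their values were seen. Without control mouse 69, the snRNP median was −0.56. Snrpn, a tissue-restricted relative of Snrpb, had 70.2, 17.1, 27.3 and 29.5 CPM in the control mice and 24.6, 37.8, 38.5 and 45.2 CPM in the etanercept-treated mice. It was highest in control mouse 1 and shared exons with Snurf and Gm38393, so its level is uncertain.

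The U1- and U2-specific proteins of the family gave 4 negative values of 4 (all tested genes, 50.96%). Snrpa (chromosome 7, 27187005 to 27196271), whose protein binds a stem-loop of U1 snRNA, had 72.6, 61.3, 49.4 and 55.7 CPM in the control mice and 40.2, 40.96, 42.6 and 36.2 CPM in the etanercept-treated mice. Every control lay above every treated mouse (log2 fold change −0.58 ± 0.16 (SE), unadjusted p = 0.00526). Snrpc, whose protein helps U1 bind the 5′ splice site and which was singled out after its values were seen, had 43.1, 42.7, 50.01 and 43.2 CPM in the control mice and 32.6, 33.9, 32.6 and 33.8 CPM in the etanercept-treated mice. The treated mice were close to each other and below all controls (log2 fold change −0.43 ± 0.14 (SE), unadjusted p = 0.0122). The U2-specific Snrpa1 and Snrpb2 had log2 fold changes of −0.41 and −0.36, with control mouse 69 the lowest mouse for both genes. Without control mouse 1 the value of Snrpb2 was −0.17, and with the GC trend removed it was −0.57.

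LSm proteins form the ring that binds the 3′ end of U6 snRNA, and a related ring takes part in mRNA decay. Of 13 genes, 2 were lower and 0 higher at unadjusted p (background 3.63% lower and 2.99% higher), with a median log2 fold change of −0.35. All 7 genes of the U6 ring had negative values, but those of Lsm4 and Lsm8 were positive in 4 and 3 of 18 other settings, and 50.96% of all tested genes were negative. Lsm7 (chromosome 10, 80852821 to 80855209), a subunit of both rings, had 51.1, 29.6, 46.8 and 25.8 CPM in the control mice and 19.4, 18.6, 23.2 and 26.3 CPM in the etanercept-treated mice. Control mouse 69 fell within the treated range at its upper end (log2 fold change −0.81 ± 0.25 (SE), unadjusted p = 0.0103). Lsm12 (chromosome 11, 102162497 to 102185296), an LSm-domain protein outside the rings, had 44.5, 41.1, 42.6 and 35.9 CPM in the control mice and 26.3, 30.6, 33.8 and 33.2 CPM in the etanercept-treated mice, without overlap (log2 fold change −0.41 ± 0.16 (SE), unadjusted p = 0.0284). Lsm3, in both rings, had 14.9, 21.8, 16.98 and 15.4 CPM in the control mice and 12.4, 11.8, 14.5 and 7.28 CPM in the etanercept-treated mice. Its groups did not overlap, with etanercept mouse 52 lowest (log2 fold change −0.58 ± 0.27 (SE), unadjusted p = 0.0567). Lsm4, the family's most abundant gene at 69.4 FPKM, had 62.3, 75.9, 99.5 and 63.03 CPM in the control mice and 110.1, 49.4, 62.7 and 53.4 CPM in the etanercept-treated mice. Etanercept mouse 17 was the highest of all mice and the groups overlapped (log2 fold change −0.13 ± 0.28 (SE), unadjusted p = 0.661), with a range of log2 fold changes from −0.44 to 0.072 over the alternative settings.

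SF3A and SF3B form the part of the U2 snRNP that recognises the branch point. Of their 9 genes, 3 were lower and 1 higher at unadjusted p (background 3.63% lower and 2.99% higher). Their median log2 fold change was −0.18, but −0.098 without control mouse 69, −0.10 without etanercept mouse 52 and −0.28 without control mouse 1. Sf3b5 (chromosome 10, 13005343 to 13009183), the small SF3B subunit, had 83.5, 75.7, 83.3 and 65.9 CPM in the control mice and 47.2, 50.8, 54.7 and 58.0002 CPM in the etanercept-treated mice. All controls lay above all treated mice (log2 fold change −0.55 ± 0.15 (SE), unadjusted p = 0.00404). Sf3a2 (chromosome 10, 80798198 to 80804924), an SF3A subunit, had 63.2, 37.8, 46.1 and 37.9 CPM in the control mice and 25.2, 35.7, 22.3 and 26.1 CPM in the etanercept-treated mice. Control mouse 1 was far above the rest, and etanercept mouse 19 came near the lowest controls (log2 fold change −0.76 ± 0.23 (SE), unadjusted p = 0.00794). It shared 429 exon bases with Plekhj1 on the opposite strand. In the other direction, Sf3b1 (chromosome 1, 54985169 to 55027481), the subunit that encloses the branch-point adenosine, had 121.02, 113.8, 117.3 and 142.8 CPM in the control mice and 154.5, 164.1, 155.9 and 151.3 CPM in the etanercept-treated mice. All treated mice lay above all controls, of which mouse 69 was highest (log2 fold change 0.34 ± 0.14 (SE), unadjusted p = 0.0352). Its log2 fold change was 0.17 with the GC trend removed and 0.19 with the length trend removed. Sf3b2, the most abundant of the family at 25.8 FPKM and a neighbour of Sf3b1 in the complex, had 186.5, 197.97, 224.6 and 177.8 CPM in the control mice and 136.6, 181.1, 157.8 and 146.1 CPM in the etanercept-treated mice, with etanercept mouse 19 among the controls (log2 fold change −0.34 ± 0.16 (SE), unadjusted p = 0.0553). Sf3a3, an SF3A subunit named after its values were seen, was the remaining gene at unadjusted p (log2 fold change −0.34 ± 0.15 (SE), unadjusted p = 0.0465).

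U2AF binds the 3′ end of the intron. U2af1 (chromosome 17, 31647081 to 31658892), which reads the terminal AG, had 66.2, 59.7, 69.2 and 63.03 CPM in the control mice and 58.8, 47.3, 44.8 and 48.6 CPM in the etanercept-treated mice, and the treated mice lay below the controls (log2 fold change −0.37 ± 0.15 (SE), unadjusted p = 0.0300). U2af2, which binds the pyrimidine tract, had 94.6, 97.8, 107.3 and 99.7 CPM in the control mice and 51.8, 93.2, 88.3 and 87.1 CPM in the etanercept-treated mice. Etanercept mouse 17 was far below the other treated mice, which came close under the lowest control (log2 fold change −0.32 ± 0.19 (SE), unadjusted p = 0.132). Without that mouse the log2 fold change of U2af2 was −0.16. U2af1l4, a U2af1 relative, did not pass the filter, with 0 counts in 7 mice and 3 in etanercept mouse 52, and its exons overlapped those of Psenen and Gm49396.

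PRPF genes, which encode proteins of several spliceosomal particles, had a median log2 fold change of 0.03, which was negative in 5 of 18 other settings and ran from −0.073 to 0.081. It was −0.054 without control mouse 3 and −0.015 without control mouse 69. With library size alone, a scaling that shifts all genes, it was −0.055 against −0.094 for all tested genes. Of 13, 0 were lower and 1 higher at unadjusted p (background 3.63% lower and 2.99% higher). Prpf31, which helps join U4/U6 to U5, had 43.2, 45.8, 47.5 and 43.8 CPM in the control mice and 33.4, 40.8, 34.5 and 43.2 CPM in the etanercept-treated mice. Etanercept mouse 52 overlapped the lowest control (log2 fold change −0.25 ± 0.15 (SE), unadjusted p = 0.133). Prpf4, a U4/U6 protein, had 17.9, 22.7, 20.3 and 13.8 CPM in the control mice and 14.6, 16.2, 16.1 and 14.2 CPM in the etanercept-treated mice, and control mouse 69 was the lowest of all (log2 fold change −0.29 ± 0.22 (SE), unadjusted p = 0.213). Without control mouse 3 its log2 fold change was −0.18. Prpf6, which bridges the tri-snRNP and was the family's most abundant gene at 19.4 FPKM, had 69.2, 66.5, 96.2 and 60.1 CPM in the control mice and 92.3, 74.1, 75.2 and 64.2 CPM in the etanercept-treated mice. Its groups overlapped (log2 fold change 0.066 ± 0.19 (SE), unadjusted p = 0.733), and its log2 fold change ran from −0.035 to 0.21 over the alternative settings.

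Among SR genes, 1 of 11 was lower and 0 higher at unadjusted p (background 3.63% lower and 2.99% higher), so the SR family as a whole is not described by this count. Srsf9 (chromosome 5, 115327177 to 115333080), which was also the most abundant SR gene at 53.4 FPKM, had 97.7, 100.2, 118.8 and 97.4 CPM in the control mice and 64.9, 85.3, 67.6 and 74.8 CPM in the etanercept-treated mice. The treated mice lay below all controls, of which mouse 65 was the highest (log2 fold change −0.50 ± 0.15 (SE), unadjusted p = 0.00758). Srsf3, the smallest SR protein, had 125.2, 168.1, 171.4 and 157.1 CPM in the control mice and 102.3, 147.3, 136.4 and 119.7 CPM in the etanercept-treated mice. Control mouse 1 fell within the treated range (log2 fold change −0.30 ± 0.17 (SE), unadjusted p = 0.117), and with the GC trend removed the log2 fold change was −0.49. Srsf11, an SR-related protein, had 53.05, 48.5, 54.7 and 49.9 CPM in the control mice and 57.3, 57.6, 58.9 and 60.4 CPM in the etanercept-treated mice. Its treated mice lay just above the highest control, a small separation (log2 fold change 0.18 ± 0.13 (SE), unadjusted p = 0.186). Its log2 fold change was 0.10 with library size alone, 0.058 with the length trend removed and 0.069 with the GC trend removed. Srsf12, the least abundant SR gene at 0.740 FPKM, had the highest log2 fold change of the family (0.35), which ran from 0.089 without etanercept mouse 17 to 0.96 without control mouse 1. Srsf2 and Srsf4 shared 25.3% and 43.02% of their exon bases with genes on the opposite strand.

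Among hnRNP genes, 1 of 20 was lower and 0 higher at unadjusted p (background 3.63% lower and 2.99% higher), which is close to the background. Negative values were found for 14, against 50.96% of all tested genes. Hnrnpa0 (chromosome 13, 58125879 to 58128556), which binds AU-rich RNA and was the most abundant member of all at 100.9 FPKM, had 347.5, 309.3, 335.9 and 272.7 CPM in the control mice and 168.2, 269.3, 241.9 and 216.6 CPM in the etanercept-treated mice. Etanercept mouse 17 was lowest and mouse 19 lay just below control mouse 69, without overlap (log2 fold change −0.50 ± 0.19 (SE), unadjusted p = 0.0242). Hnrnpu (chromosome 1, 178321108 to 178337797), a nuclear scaffold protein, had 264.9, 218.3, 258.4 and 229.8 CPM in the control mice and 180.9, 202.1, 204.6 and 189.6 CPM in the etanercept-treated mice, also without overlap (log2 fold change −0.32 ± 0.14 (SE), unadjusted p = 0.0513). With the GC trend removed its log2 fold change was −0.52. Hnrnpm, which binds GU-rich RNA, had 100.8, 143.8, 142.5 and 121.1 CPM in the control mice and 106.002, 104.6, 100.1 and 93.5 CPM in the etanercept-treated mice. Control mouse 1 lay among the treated mice (log2 fold change −0.33 ± 0.16 (SE), unadjusted p = 0.0622). Hnrnpa3, singled out after its values were seen, had 255.3, 311.7, 311.1 and 365.2 CPM in the control mice and 156.8, 320.7, 277.6 and 253.1 CPM in the etanercept-treated mice, and etanercept mouse 17 stood far below the other mice. Without etanercept mouse 17, the hnRNP median was −0.12. Hnrnpll, a regulator of lymphocyte splicing, had the highest log2 fold change of the family (0.41 ± 0.22, SE), which was 0.25 without etanercept mouse 17, 0.27 with the length trend removed and 0.23 with the GC trend removed.

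Acin1 (chromosome 14, 54642161 to 54686931), a scaffold that binds RNA with the exon junction complex, had the smallest edgeR p of all members. By DESeq2, Snrpf had a smaller unadjusted p (0.000258) than Acin1 (0.000346). Acin1 was included by name, with earlier results known, so its rank is not a separate observation. Its level was 87.1, 66.01, 89.95 and 66.8 CPM in the control mice and 49.9, 48.9, 44.1 and 51.9 CPM in the etanercept-treated mice. Control mice 1 and 65 stood above control mice 3 and 69, and all lay above the treated mice (log2 fold change −0.67 ± 0.16 (SE), unadjusted p = 0.00203). Controls averaged 77.5 ± 12.8 CPM and treated mice 48.7 ± 3.32 CPM (SD, n = 4 each). Over the alternative settings the log2 fold change ran from −0.82 to −0.59.

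**Figure D3:**
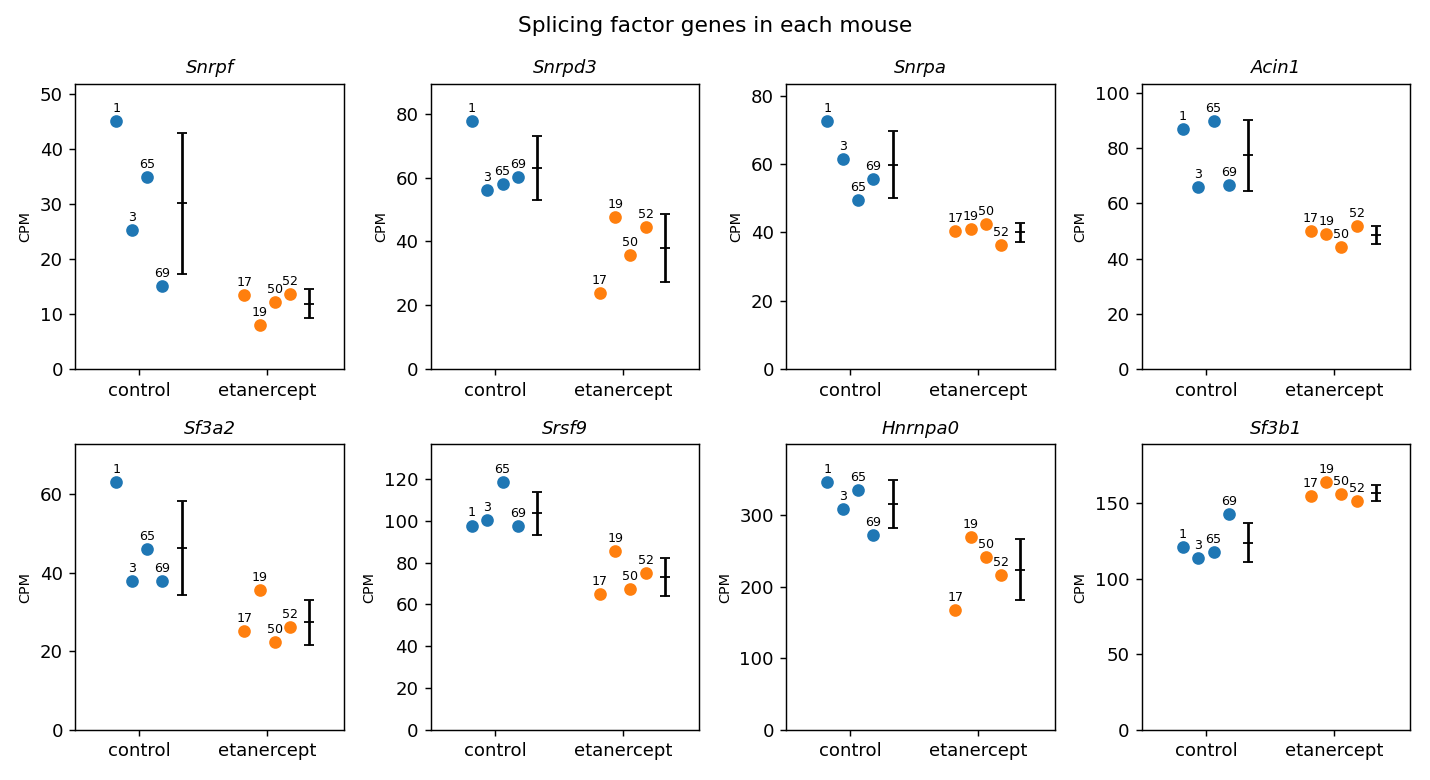
CPM of Snrpf, Snrpd3, Snrpa, Acin1, Sf3a2, Srsf9, Hnrnpa0 and Sf3b1 in each mouse, with the mean and SD of each group (n = 4) in black and animal numbers beside the points. The genes were picked by hand from the named genes, and in each panel the groups do not overlap. Named genes whose groups overlap, such as Lsm7 and Snrpb, are not shown. Among all tested members the groups did not overlap for 17 lower (background 2.53%) and 3 higher (background 2.41%). Sf3b1 is the gene whose treated mice lie above the controls.

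Other genes of the splicing pathway were taken from 6 lists. Of their 147 tested genes, 11 were lower and 4 higher at unadjusted p (background 3.63% lower and 2.99% higher), with a median log2 fold change of −0.13. The number higher is near the background. The lists are short, so 1 or 2 such genes are not read as a result about a list, and the gene with the smallest p of each is described as a gene. Exon junction complex and mRNA export genes counted 6 lower and 0 higher of 18, and 17 had negative values, against 50.96% of all tested genes. Their Upf1, the helicase of nonsense-mediated decay, had 73.5, 62.01, 82.6 and 63.03 CPM in the control mice and 44.4, 48.99, 47.9 and 34.9 CPM in the etanercept-treated mice. All treated mice lay below all controls (log2 fold change −0.67 ± 0.17 (SE), unadjusted p = 0.00292). Further snRNP proteins counted 2 lower and 0 higher of 24. Sart1, which brings the tri-snRNP to the spliceosome, had 75.4, 60.3, 78.3 and 50.1 CPM in the control mice and 42.9, 52.5, 41.1 and 48.7 CPM in the etanercept-treated mice, and control mouse 69 overlapped the treated mice (log2 fold change −0.51 ± 0.18 (SE), unadjusted p = 0.0194). SR-related proteins and SR kinases counted 0 lower and 1 higher of 25. The higher gene was Clk1, a kinase of SR proteins, with 42.4, 44.6, 41.6 and 35.8 CPM in the control mice and 57.8, 48.5, 69.7 and 65.8 CPM in the etanercept-treated mice. All its treated mice lay above all controls (log2 fold change 0.56 ± 0.16 (SE), unadjusted p = 0.00727), and with the GC trend removed its log2 fold change was 0.34.

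Helicases and genes of the Prp19-associated complex counted 2 lower and 1 higher of 30. Ddx46, the helicase that acts with the U2 snRNP, had 49.1, 42.5, 41.8 and 40.9 CPM in the control mice and 61.7, 61.4, 49.6 and 57.3 CPM in the etanercept-treated mice. Etanercept mouse 50 lay just above control mouse 1, without overlap (log2 fold change 0.40 ± 0.15 (SE), unadjusted p = 0.0217). Other regulators counted 1 lower and 1 higher of 36. Khsrp, a KH-domain RNA-binding protein, had 46.7, 41.3, 52.6 and 32.4 CPM in the control mice and 31.6, 29.6, 28.2 and 23.2 CPM in the etanercept-treated mice, without overlap (log2 fold change −0.62 ± 0.19 (SE), unadjusted p = 0.00986). Genes of the SMN complex and Sm methylation, which assemble the Sm ring, counted 0 lower and 1 higher of 14. Tgs1, which modifies the cap of snRNAs, had 5.97, 12.002, 6.62 and 4.69 CPM in the control mice and 15.7, 8.02, 12.9 and 15.7 CPM in the etanercept-treated mice, with overlap (log2 fold change 0.84 ± 0.37 (SE), unadjusted p = 0.0482).

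Promoter windows from RefSeq (GRCm38.p6), from 250 bases before to 50 bases after each start, were searched on both strands for short motifs. Windows were found for 70 members. An ETS-type motif (CCGGAAG) was in 29.2% of 96 member windows and 8.86% of all 32851 windows. An NRF1-type motif (TGCGCA) was in 30.2% and 7.76%, and a YY1-type motif (ATGGCGG) in 18.8% and 4.05%. The CCAAT box (CCAAT) was in 44.8% and 37.4%, the GC box (GGGCGG) in 64.6% and 35.7%, and the TATA box (TATAAA) in 7.29% and 13.6%. By gene, the ETS-type motif was in 22, the NRF1-type in 24 and the YY1-type in 15 of 70 members. Most members thus lacked each of them. Of 10 snRNP, 11 SR and 18 hnRNP genes, 4, 4 and 2 had the ETS-type motif. The NRF1-type was in 4, 3 and 4 of them, and the YY1-type in 1, 3 and 5. The 120 bases before the RefSeq start are shown for the 3 snRNP genes with the smallest p and for Acin1, with matches to these motifs in capitals. They lie on the minus strand at chr10:93589659-93589778 for Snrpf, chr7:27196272-27196391 for Snrpa and chr14:54686932-54687051 for Acin1, and on the plus strand at chr10:75517922-75518041 for Snrpd3. The RefSeq starts of Snrpf and Snrpd3 lie within the gene spans given above, so the stretch of Snrpd3 lies inside its span and that of Snrpf partly so. Snrpa and Acin1 have further starts in RefSeq, and the stretch beside the annotated gene start is shown. The searched letters were not found in the Snrpa stretch.
Snrpf: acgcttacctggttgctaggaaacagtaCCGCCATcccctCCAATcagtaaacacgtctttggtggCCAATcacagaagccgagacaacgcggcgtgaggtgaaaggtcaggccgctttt
Snrpa: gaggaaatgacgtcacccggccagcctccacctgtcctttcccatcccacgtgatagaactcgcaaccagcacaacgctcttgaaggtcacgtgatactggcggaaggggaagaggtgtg
Snrpd3: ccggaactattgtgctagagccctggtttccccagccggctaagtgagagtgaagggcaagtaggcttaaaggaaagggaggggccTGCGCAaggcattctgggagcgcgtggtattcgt
Acin1: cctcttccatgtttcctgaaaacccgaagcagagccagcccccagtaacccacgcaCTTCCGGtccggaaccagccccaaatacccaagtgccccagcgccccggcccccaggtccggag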

How the data were processed

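Whole prostates of 8 NOD mice were sequenced as poly(A) RNA in paired reads. Per the labels, the authors used fastp, STAR 2.6.1d, featureCounts 1.5.0-p3 and DESeq2 1.26.0 on mm10, and deposited raw counts per gene. Strand and multimapping settings were not given in the sources used here. Genes were matched by Ensembl identifier to GENCODE M21, in which 54495 of 54532 identifiers were found. Counts were scaled by TMM and tested in edgeR 4.0.16 (R 4.3.3) with glmQLFit and glmQLFTest after filterByExpr with a minimum count of 10, and p-values were adjusted over all tested genes. The SE of an edgeR log2 fold change was its absolute value divided by the square root of the F statistic of that test. DESeq2 1.42.0 was the alternative tool. The steps were tested on simulated data with less spread between mice than these data, whose common dispersion in edgeR was 0.30. That test therefore does not show what size of change could be called here. CPM used the TMM factors, FPKM divided CPM by the union exon length, and family levels were means of log2(CPM + 1). Named genes were Acin1, in each family the 3 with the smallest p and the gene with the highest FPKM, and in each pathway list the gene with the smallest p. A gene that this rule selects is not reported here. Lists of the pathway and of cell type markers were fixed by hand. The members and lists were chosen with earlier results of these data known. 25 members overlapped exons of genes on the opposite strand and 8 on the same strand. Besides those described above, the share of exon bases was 29.1% for Hnrnpab, 26.5% for Hnrnpf, 18.1% for Prpf31 and 11.03% for Snrpa, on the opposite strand. For Hnrnpm it was 14.7%, on the same strand. The levels of these genes are uncertain in the same way. Alternatives were other scalings, filters, trends of length and GC, a block of animal numbers below 20 or above 49, and leaving out each mouse.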

Additional observations from a re-analysis of the deposited data

Results flagged for a closer look

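In 76 groups of 4 mice, the distance of the highest or lowest mouse from its nearest neighbour was compared with the range of the group. A large gap was found in 5 groups, where chance gives about 1 in 20, so the number is near that given by chance. The groups also share genes, since family levels include named genes. The gaps are given as values of single mice and not as results about the members. Srsf9 stood at 118.8 CPM in control mouse 65, against 100.2 CPM in the next control. U2af2 stood at 51.8 CPM in etanercept mouse 17, which also held the most seminal vesicle RNA, against 87.1 CPM in the next treated mouse. The mean log2 level of PRPF genes was 5.25 in control mouse 65 and 5.09 in the next control. The mean log2 level of LSm genes was 4.45 in control mouse 69 and 4.60 in the next control. For hnRNP genes it was 6.97 in control mouse 1 and 7.07 in the next control.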

How the results depend on the processing

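Of 30 named genes, 28 kept their direction in all 18 settings tried, and none passed an adjusted p of 0.05 in any. Prpf6 changed sign with library size alone (−0.021), without control mouse 69 (−0.015) and without etanercept mouse 17 (−0.035). With library size alone the median of all tested genes was −0.094, below the value of Prpf6. Lsm4 changed sign with the length trend removed (0.072), with the GC trend removed (0.029), without control mouse 65 (0.015) and without etanercept mouse 19 (0.0054). DESeq2 called 21 genes and edgeR called 0 in each setting. With library size alone, 20 members were lower and 1 higher at unadjusted p. The median log2 fold change was −0.28 for members, −0.032 for SR and −0.22 for hnRNP genes, against −0.094 for all tested genes. With the GC trend removed, 19 were lower and 0 higher, and the medians were −0.27, −0.13 and −0.24, against −0.024 for all tested genes. With the length trend removed, 1 was higher and the SR median was −0.054, and with no filter beyond 1 count 1 was higher. Over the fits that leave out each mouse, the log2 fold change ran from −0.44 to 0.015 for Lsm4 and from −0.035 to 0.21 for Prpf6. These fits gave 9 to 19 members lower, 1 to 4 higher and an SR median of −0.038 to 0.084. The cause of these shifts was not tested. Shares of all tested genes lower or higher are not given for the scaling, filter, trend and leave-out fits, so their counts have no background. No paired analysis was possible because the groups share no animal number. Depth limits the lowest members most, since 3 counts equalled 0.108 to 0.211 CPM.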
